A study of Hydra vulgaris with 30 samples.

Results

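The control tips of regenerating Hydra were compared at 3 and 0 hours postamputation (hpa) to describe the first change in the transcriptome after decapitation. These are 6 of the 30 libraries of the series, 3 of DMSO tips at 3 hpa and 3 of DMSO tips at 0 hpa, chosen by the treatment and time in their labels. All polyps were Hydra vulgaris Ind-Pune grown as a clone at 18 °C, and those of both groups were in 0.2% DMSO, the vehicle. The other libraries of the series include tips in UNC0379, which inhibits SETD8, the enzyme that adds 1 methyl group to lysine 20 of histone H4, and for which the labels write 150 with the unit µM in a field and mM in a different one. DMSO and UNC0379 tips were each sampled at 0 and 3 hpa and at 3 later times (8, 12 and 24 hpa). QuantSeq reads start near the poly(A) tail, so that 1 read marks the end of a transcript. Whether the 3 libraries of a group stem from separate cultures is not stated, so that the p-values reflect the spread between libraries, which may be technical.

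Hydra regrows its head from the tissue just below the cut. In the regenerating tip a new head organizer forms, and Wnt signaling is known for its role in setting up the oral end of the polyp. Brachyury is a T-box transcription factor expressed in the hypostome, the mouth-bearing cone of the head. Dickkopf proteins are secreted, and some of them antagonize Wnt signaling.

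Reads assigned to a transcript numbered 472605 to 760803 at 0 hpa and 387407 to 635640 at 3 hpa. Of the 51290 annotated transcripts, 18590 had at least 1 count in the 6 libraries, and 5046 passed the filter on low counts and held 96.9% of their assigned reads. The share of reads that did not align was 16.5% and 18.3% in DMSO 0 hpa replicates 1 and 3, 53.2% in DMSO 0 hpa replicate 2, and 42.4% to 57.1% at 3 hpa. DMSO 0 hpa replicates 1 and 3 lay 1.06 apart on the log2 scale over the 500 transcripts that differed most, while DMSO 0 hpa replicate 2 lay 1.61 and 1.64 from them. As a measure of how far a library stands apart, its mean distance to its group was divided by the distance between the other two libraries of the group. This ratio was highest for UNC0379 24 hpa replicate 3, at 2.14. It was 1.62 for UNC0379 0 hpa replicate 3 and 1.53 for DMSO 0 hpa replicate 2, and at most 1.21 in the other libraries. The library nearest to each of the 2 UNC0379 libraries was DMSO 24 hpa replicate 3. The labelled tissue could not be checked against marker genes, because no identifier of the files was found in the gene table used here.

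At 3 hpa 76 transcripts had fallen and 48 had risen. Of the 5046 transcripts tested, 124 (2.46%) changed at an adjusted p under 0.05 in edgeR's quasi-likelihood test, 48 (0.951%) higher and 76 (1.51%) lower at 3 hpa. The median log2 fold change was 1.57 among the risen transcripts and -1.63 among the fallen, against 0.0023 over all transcripts tested. Of the risen transcripts 43 changed over 2-fold and 16 over 4-fold, and of the fallen 66 and 27. An unadjusted p under 0.05 was reached by 663 transcripts, 279 higher and 384 lower.

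The count of calls depended on the libraries in the fit. Without DMSO 0 hpa replicate 1 it was 59, without DMSO 0 hpa replicate 3 it was 60, and without DMSO 0 hpa replicate 2 it was 203. Leaving out DMSO 3 hpa replicate 1, 2 or 3 gave 78, 66 and 74 calls. UNC0379 24 hpa replicate 3 is in neither group but shares in the estimate of the spread, and without it 216 transcripts were called, 123 of the 124 among them. In 2 settings added once the data had been seen, 24 transcripts were called when DMSO 0 hpa replicate 2 was the only 0 hpa control kept, and 534, with all 124 among them, when the 3 libraries with the highest ratio, DMSO 0 hpa replicate 2 among them, were left out together. Those 534 were 266 higher and 268 lower, so that the larger number of fallen transcripts was not kept in that setting. With the share of reads not aligned as a covariate, a setting also added later, edgeR called 71 transcripts, 67 of them among the 124. That fit also left out DMSO 24 hpa replicate 3 and tested 5350 transcripts.

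**Figure D1:**
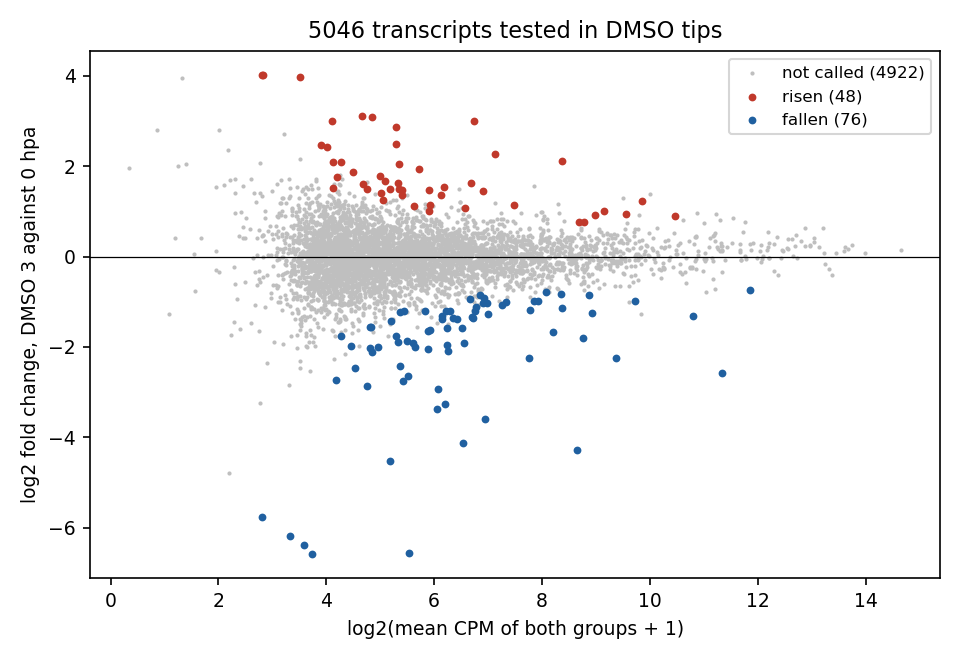
Each point is 1 of the 5046 transcripts tested, by its mean level in the DMSO 0 and 3 hpa libraries (x axis, log2 of CPM + 1) and its log2 fold change at 3 against 0 hpa (y axis). The 48 risen (red) and 76 fallen (blue) transcripts stand out from the 4922 not called (grey), and the fitted values of the 4 fallen transcripts that had no count at 3 hpa are not bounds.

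In all 3 libraries of each group the calls lay apart for nearly every transcript. The 3 hpa libraries were all above the 0 hpa libraries for 48 of 48 risen transcripts, and all below them for 74 of 76 fallen, where 10.7% and 10.4% of all transcripts tested did so. These libraries chose the transcripts, so that the separation is a description and no test. The share of assigned reads in the 76 fallen transcripts was 3.09%, 1.95% and 2.63% in DMSO 0 hpa replicates 1, 2 and 3, and 0.916%, 0.831% and 0.948% at 3 hpa. The share in the 48 risen was 0.400%, 0.541% and 0.391% at 0 hpa and 0.996%, 0.985% and 0.904% at 3 hpa. In both lists DMSO 0 hpa replicate 2 was the 0 hpa library nearest to the 3 hpa libraries. It was the lowest of the 0 hpa libraries for 56 of 76 fallen transcripts and the highest for 24 of 48 risen, where 43.4% and 37.8% of all transcripts tested had it lowest and highest. The part of the unaligned share in these values was not tested. In such bulk samples, fewer cells of a type and less RNA per cell cannot be told apart.

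The calls were spread over the range of abundance. With the transcripts tested divided by level into 3 classes of 1682, 6 risen and 16 fallen transcripts lay in the lowest class, 20 and 27 in the middle class, and 22 and 33 in the highest. The smallest change called was 1.49 on the log2 scale in the lowest class and 0.74 in the highest. 4 of the fallen transcripts had no count in any 3 hpa library. Their mean level at 0 hpa ran from 12.0 to 24.8 CPM, and they were at least 5.76-fold to at least 11.8-fold lower at 3 hpa, taking 3 counts over the 3 libraries as the floor. In each of the 4, the highest 0 hpa library was over 4 times the lowest. No risen transcript was at 0 in all 0 hpa libraries, and 3 had 3 or fewer counts over them.

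The fallen transcript with the smallest adjusted p was Sc4wPfr_1211.g17518.t1. Its level was 5456, 4072 and 3820 CPM in DMSO 0 hpa replicates 1, 2 and 3 and 818, 743 and 682 CPM in the 3 hpa libraries. Every 0 hpa library was far above every 3 hpa library. It fell by 2.57 on the log2 scale (standard error 0.18, edgeR adjusted p = 1.7e-12). Its mean was 966, 754 and 647 CPM at the 3 later times in DMSO, so that no later group came back to the level at 0 hpa.

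The other fallen transcript named by the same rule, Sc4wPfr_272.g11338.t1, lost nearly all of its counts. It stood at 836, 508 and 948 CPM at 0 hpa and at 24.1, 22.9 and 64.1 CPM at 3 hpa. The groups did not overlap, and replicate 2 was the lowest of the 0 hpa libraries. The log2 fold change was -4.28 (standard error 0.35, edgeR adjusted p = 1.1e-10). Its mean in DMSO was 40.9, 20.5 and 3.13 CPM at the 3 later times.

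The risen transcript with the smallest adjusted p, Sc4wPfr_926.1.g9722.t1, was barely counted at 0 hpa. It had 4, 3 and 11 reads there, a mean of 8.89 ± 5.32 CPM (SD, n = 3 libraries), and 56.2, 68.6 and 77.0 CPM at 3 hpa. All 3 hpa libraries were above all 0 hpa libraries. It rose by 2.87 on the log2 scale (standard error 0.39, edgeR adjusted p = 9.1e-06), and with all libraries thinned to the smallest total the adjusted p was 0.0578. Its mean in DMSO was lower at 24 hpa, at 27.1 CPM, than the 67.2 CPM at 3 hpa.

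Sc4wPfr_1056.g20037.t1 rose from 23.8, 11.2 and 27.2 CPM at 0 hpa to 61.5, 101 and 86.6 CPM at 3 hpa. The groups did not overlap, and the lowest library was again replicate 2 at 0 hpa. The log2 fold change was 1.93 (standard error 0.28, edgeR adjusted p = 2.5e-05). In DMSO it stood at 93.5 CPM (8 hpa), 75.4 CPM (12 hpa) and 180 CPM (24 hpa), the last being the highest mean of the control groups. A gene model 2 numbers away on the same scaffold rose as well. Of 4285 pairs of tested gene models on 1 scaffold with numbers at most 10 apart, 193 held at least 1 called transcript and 7 held 2, of which 4 pairs had fallen, 2 had risen and 1 moved in opposite directions. Of all tested transcripts with Sc4wPfr identifiers, 2.7% were called. Whether called models lie near each other more often than that share gives was not tested.

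**Figure D2:**
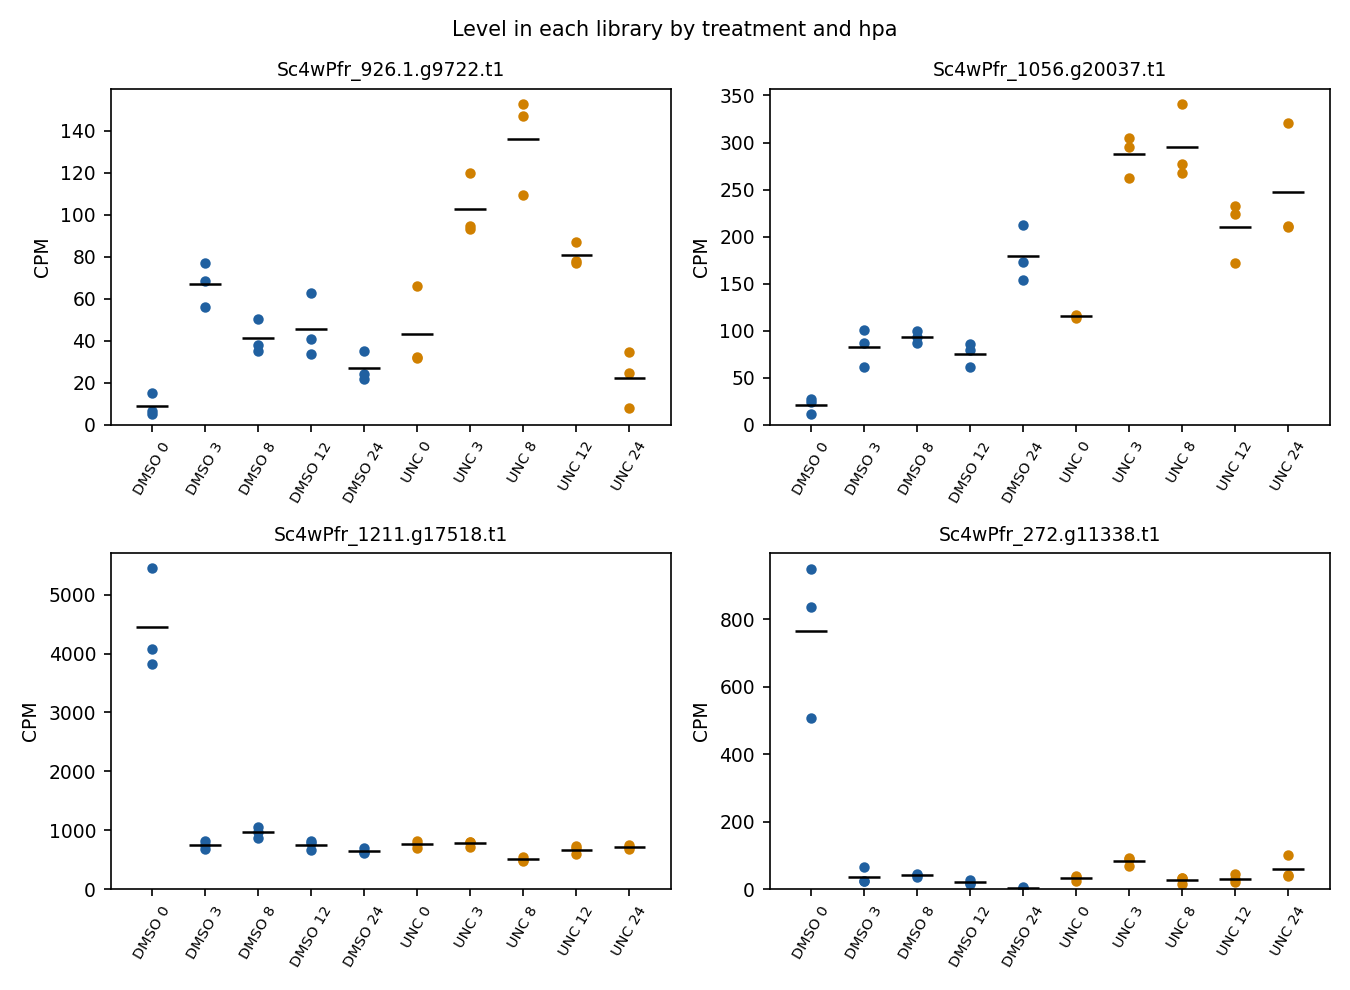
CPM (y axis, from 0) of the 4 transcripts named by identifier in each library, by treatment and hpa (x axis). Points are libraries, bars are means of 3, blue is DMSO and orange UNC0379 (UNC). Sc4wPfr_1211.g17518.t1 and Sc4wPfr_272.g11338.t1 were high only in the 3 DMSO 0 hpa libraries among the 30.

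Of 16 gene models that the study's figures pair with a name, 3 had enough counts to be tested, and none was called. Brachyury protein-like (Sc4wPfr_489.2.g16698.t1) had 2, 1 and 1 reads at 0 hpa and 5, 4 and 4 at 3 hpa, or 2.03 ± 0.597 and 9.64 ± 3.50 CPM (SD, n = 3 libraries). The libraries did not overlap, but at so few reads the log2 difference of 2.06 had a standard error of 0.77 and an edgeR adjusted p of 0.181 (0.0109 unadjusted in edgeR). Its mean in the later DMSO groups was 14.9 CPM (8 hpa), 26.8 CPM (12 hpa) and 16.8 CPM (24 hpa). Against DMSO at 0 hpa, it was called higher at each of these times. The log2 differences were 2.74 at 8 hpa (edgeR adjusted p = 0.012) and 3.57 at 12 hpa (edgeR adjusted p = 0.00024). At 24 hpa the log2 difference was 2.84 (edgeR adjusted p = 0.00828). These differences rest on the same few reads at 0 hpa.

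Dickkopf-related protein 3 (Sc4wPfr_504.g10351.t1) had 72, 38 and 65 reads at 0 hpa, a mean of 87.8 ± 2.49 CPM (SD, n = 3 libraries), and 74.9, 89.2 and 103 CPM at 3 hpa. The groups overlapped, and the log2 difference was 0.027 with a standard error of 0.33 (edgeR adjusted p = 0.991). NHL repeat-containing protein 2 (Sc4wPfr_433.g11169.t1) had 24.9 ± 8.07 CPM at 0 hpa and 36.0 ± 8.04 CPM at 3 hpa (SD, n = 3 libraries), also overlapping, with a log2 difference of 0.50 and a standard error of 0.47 (edgeR adjusted p = 0.717).

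The other named models had too few assigned reads to be compared. Reads that fit several transcripts were recorded as ambiguous and left out, and of the 8 named models with 2 or more annotated transcripts 7 had no assigned read, against 1 of the 8 with a single transcript. A count of 0 then means no uniquely assigned read, and says nothing about expression of the gene. Villin-1, an actin-bundling protein, had 9 reads over the 0 hpa libraries and 10 over the 3 hpa libraries. Rap1 GTPase-activating protein 1 had 5 and 0, and a model named for ADP-ribosyl cyclase 4 and 0. The Wnt receptor frizzled5/8 and DNA topoisomerase 2-alpha had 1 read in each group. N-lysine methyltransferase KMT5A-A, whose name matches the target of the inhibitor, has 2 annotated transcripts and had no assigned read in these 6 libraries.

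By their median, the 76 fallen transcripts were also lower in the groups not compared here than in DMSO at 0 hpa. Their median level was 118 CPM in DMSO at 0 hpa and 35.4 at 3 hpa, and 35.5, 36.0 and 38.5 CPM at 8, 12 and 24 hpa in DMSO. Under UNC0379 it was 56.7 CPM at 0 hpa and 55.9 at 3 hpa. Single transcripts differed in this. Under UNC0379 at 0 hpa, 50 of the 76 lay nearer to their DMSO level at 3 hpa and 26 nearer to that at 0 hpa. DMSO at 0 hpa had the highest mean of the 10 groups for 59 of the 76, against 12.1% of all transcripts tested, and the lowest for 27 of the 48 risen, against 9.27%. The DMSO 0 hpa libraries chose both lists, so that their extreme place is in part fixed by the choice. The 48 risen transcripts had a median of 20.2 CPM in DMSO at 0 hpa and 61.8 at 3 hpa, then 56.2, 63.6 and 56.8 CPM in DMSO, and 43.0 CPM under UNC0379 at 0 hpa and 63.3 at 3 hpa.

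**Figure D3:**
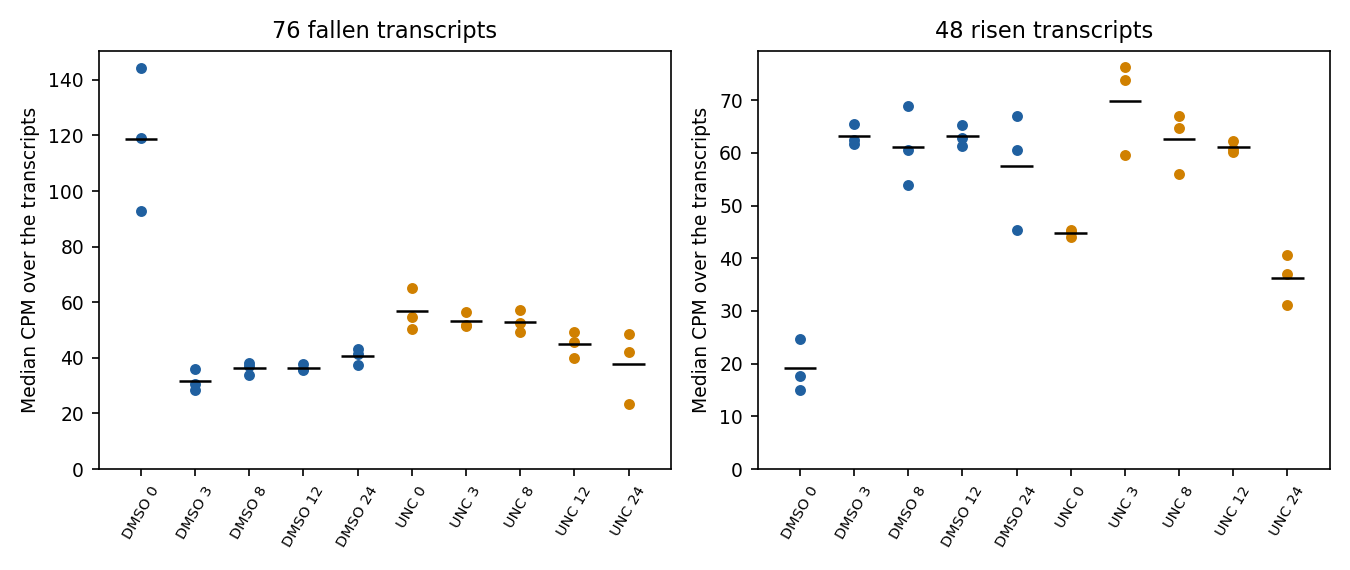
Median CPM (y axis, from 0) over the 76 fallen and the 48 risen transcripts in each library, by treatment and hpa (x axis). Points are libraries, bars are means of 3, blue is DMSO and orange UNC0379 (UNC). The 3 DMSO 0 hpa libraries are above all others for the fallen and below all others for the risen transcripts.

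The UNC0379 libraries shared in the filter on low counts and in the estimate of the spread behind the calls. Their tips give the same interval outside the DMSO comparison. There the median log2 change from 0 to 3 hpa was -0.086 for the fallen transcripts and 0.38 for the risen, against -0.039 over all transcripts tested. Without UNC0379 0 hpa replicate 3, which lies far from its group, these medians were 0.060 for the fallen, 0.15 for the risen and 0.0047 over all transcripts. Of the 76 fallen, 2 were called lower and 4 higher under UNC0379, and of the 48 risen 9 were called higher and 2 lower, where 2.87% of all transcripts tested were called lower and 1.74% higher. The change in UNC0379 tips differed from that in DMSO tips for 27 of the 76 fallen and 10 of the 48 risen transcripts in the test of the difference, which called 135 (2.68%) of all transcripts. That difference contains the DMSO libraries that chose the transcripts, so that its direction is in part fixed by the choice. For the same 124 transcripts, the numbers were 29 and 13 without UNC0379 0 hpa replicate 3, and 34 and 22 without DMSO 0 hpa replicate 2. Where the DMSO calls were made anew as well, they were 18 of 39 fallen and 3 of 20 risen without DMSO 0 hpa replicate 1. Without DMSO 0 hpa replicate 2 they were 42 of 121 and 38 of 82. Without DMSO 0 hpa replicate 3 they were 19 of 43 and 3 of 17. In these fits the test of the difference called 111 of 5320, 197 of 5393 and 100 of 5324 transcripts tested. Without DMSO 3 hpa replicates 1, 2 and 3, the fallen were 18 of 50, 20 of 42 and 17 of 45. The risen were then 5 of 28, 1 of 24 and 4 of 29. Without UNC0379 24 hpa replicate 3 the numbers were 52 of 128 fallen and 33 of 88 risen.

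**Figure D4:**
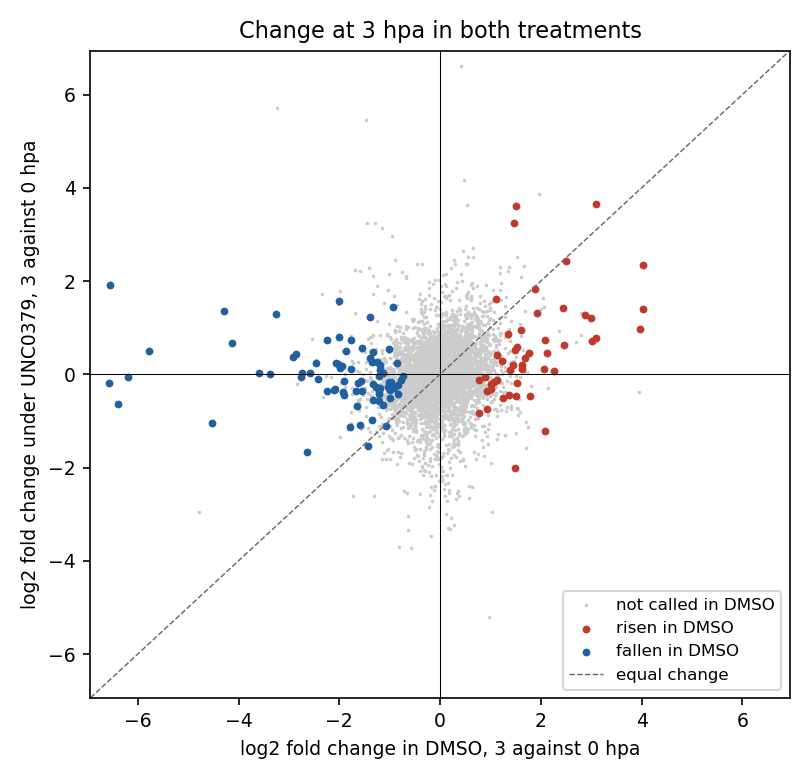
Log2 fold change at 3 against 0 hpa in DMSO (x axis) and under UNC0379 (y axis) for each transcript tested, with the line of equal change dashed. The 76 fallen transcripts (blue) lie around a median of -0.086 on the y axis and the 48 risen (red) around 0.38.

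The named transcripts differed among themselves under UNC0379. Sc4wPfr_1211.g17518.t1 stood at 762 ± 59.0 CPM at 0 hpa and 774 ± 48.9 CPM at 3 hpa (SD, n = 3 libraries), close to its level in DMSO at 3 hpa. Sc4wPfr_272.g11338.t1 was at 32.5 CPM at 0 hpa and 83.6 at 3 hpa, a rise of 1.36 on the log2 scale (edgeR adjusted p = 0.0253), which was no smaller but not called without UNC0379 0 hpa replicate 3 (log2 difference 1.45, edgeR adjusted p = 0.0554). Sc4wPfr_1056.g20037.t1 rose in UNC0379 tips as well, from 115 to 287 CPM (log2 fold change 1.31, edgeR adjusted p = 0.000148), and so did Sc4wPfr_926.1.g9722.t1, from 43.3 to 103 CPM (log2 fold change 1.26, edgeR adjusted p = 0.0107). Without UNC0379 0 hpa replicate 3 the rise of Sc4wPfr_926.1.g9722.t1 under UNC0379 was not called (log2 difference 1.11, edgeR adjusted p = 0.0771). Both started from a higher mean at 0 hpa than in DMSO, and the test of the difference in their change gave edgeR adjusted p-values of 0.515 and 0.0824. Brachyury protein-like had 10.1 ± 4.75 CPM at 0 hpa and 28.5 ± 8.01 CPM at 3 hpa under UNC0379 (SD, n = 3 libraries), with a log2 difference of 1.45 and an edgeR adjusted p of 0.104.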

How the data were processed

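QuantSeq 3′ libraries of regenerating tips were grouped by the treatment and time in their labels. The authors deposited unnormalized counts per transcript, in a file for each library, after Trimmomatic, HISAT2 and HTSeq according to the submitters' processing notes. The build, the annotation and the use of strand were not given in the sources used here. Reads assigned to no transcript, including ambiguous ones (41.9% to 43.7% of the aligned reads in the 6 libraries), were left out. The counts of 30 libraries were fitted with edgeR 4.0.16 under R 4.3.3 (filterByExpr with a minimum count of 10, TMM, robust quasi-likelihood F-test, one coefficient per group). P-values were adjusted by Benjamini-Hochberg over 5046 transcripts at a threshold of 0.05. The smallest p of an exact two-sided permutation test of 3 against 3 libraries is 0.1. Levels are CPM with TMM library sizes, where 1 read was worth 1.25 to 2.67 CPM in the 6 libraries. No molecular identifiers are named, so that limits cover counting error only. The test was first tried on simulated data. There it found 77 of the 106 transcripts given a 4-fold difference, but only 23 of the 94 given a 2-fold one. It also made 9 wrong calls. A transcript that was not called may therefore still differ by 2-fold.

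Named transcripts were all tested loci of the study's figures and, as 0 of 51290 identifiers were found in the reference gene table, the 2 risen and 2 fallen transcripts with the smallest adjusted p and no overlap of libraries. No gene list and no sequence could be used for the same reason. The members and lists were chosen with earlier results of these data known. Alternatives were DESeq2 1.42.0, limma-voom (limma 3.58.1), other normalizations, filters and limits, the libraries compared alone, a replicate block, thinned libraries, sums per gene model and libraries left out. Figures were drawn with matplotlib 3.10.9.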

Additional observations from a re-analysis of the deposited data

Results flagged for a closer look

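In 3 named transcripts the change from 0 to 3 hpa differed between the treatments in edgeR's test of the difference. The change under UNC0379 was 2.59 higher on the log2 scale than in DMSO for Sc4wPfr_1211.g17518.t1 (edgeR adjusted p = 4.99e-09) and 5.64 higher for Sc4wPfr_272.g11338.t1 (edgeR adjusted p = 3.09e-09). These 2 were named for their falls in DMSO, with log2 fold changes of -2.57 and -4.28. The difference contains those falls, so that its size and p-value are in part fixed by the choice. For dickkopf-related protein 3 the difference was -2.03 (edgeR adjusted p = 0.0316), with 28.9, 43.1 and 91.8 CPM in the UNC0379 libraries at 0 hpa and 25.7, 6.11 and 13.1 CPM at 3 hpa. Its highest 0 hpa value is that of UNC0379 0 hpa replicate 3, and without that library the difference was -1.40 (edgeR adjusted p = 0.192). Among the transcripts called in DMSO, 27 of 76 fallen and 10 of 48 risen ones differed between the treatments, against 2.68% of all transcripts tested. All 27 and all 10 differed in the direction opposing their change in DMSO. The DMSO libraries that chose them are part of the difference, so that this direction is in part fixed by the choice. When 1 library was left out and the DMSO calls were made anew, 17 to 52 fallen and 1 to 38 risen ones differed. The lists then held 39 to 128 fallen and 17 to 88 risen transcripts. The differences of Sc4wPfr_1211.g17518.t1 and Sc4wPfr_272.g11338.t1 without UNC0379 0 hpa replicate 3 were 2.57 and 5.73, both called. Nothing about the source of these differences was tested.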

How the results depend on the processing

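The direction of the 4 transcripts named by identifier was kept in all 24 alternatives, and their calls in all but 1: Sc4wPfr_926.1.g9722.t1 at 2.24 on the log2 scale in thinned libraries. Brachyury protein-like was called at 3 hpa in none of the 21 alternatives that tested it, and NHL repeat-containing protein 2 in none of 23. The near-zero difference of dickkopf-related protein 3 turned to -0.66 in thinned libraries. It ran from -0.073 to 0.16 with 1 library left out, below 0 only without DMSO 3 hpa replicate 3, and was -0.085 with the share of reads not aligned as a covariate. The counts of calls were less stable, and the cause was not tested beyond the settings' own construction. From 124 calls (48 higher, 76 lower) and 135 for the difference between treatments, an unadjusted p under 0.01 with a log2 fold change over 0.58 gave 280 (108, 172) and 306, and libraries thinned to the smallest total 31 (12, 19) and 53, with fewer transcripts tested. The 15 DMSO libraries alone gave 211 (83, 128). With only the 6 libraries compared, 3994 transcripts were tested, and 67 were called higher and 95 lower. These calls held 99 of the 124, with 31 of the 48 risen and 68 of the 76 fallen. Brachyury protein-like was not among the transcripts tested in that fit. The parts of the filter and of the spread in the calls lost there were not tested. Leaving out 1 library at a time gave 59 to 216 calls, 17 to 88 higher and 39 to 128 lower, and 90 to 248 for the difference. For the calls, only the 6 libraries compared and UNC0379 24 hpa replicate 3 were left out in turn. For the difference, the UNC0379 libraries of 0 and 3 hpa were as well. The lowest count of calls came without DMSO 0 hpa replicate 1 and the highest without UNC0379 24 hpa replicate 3. Of the settings chosen after seeing the data, DMSO 0 hpa replicate 2 as the only 0 hpa control gave 24 (3, 21) and 38, where a lone library is assumed to vary like the other groups. The covariate, in a fit that also left out DMSO 24 hpa replicate 3, gave 71 (29, 42). Leaving out UNC0379 0 hpa replicate 3, UNC0379 24 hpa replicate 3 and DMSO 24 hpa replicate 3, the last of which had 98.2% of its reads not aligned but was not far from its group, gave 391 (176, 215) and 297. Leaving out the 3 libraries that stood apart most (UNC0379 24 hpa replicate 3, UNC0379 0 hpa replicate 3 and DMSO 0 hpa replicate 2) gave 534 (266, 268) and 425. DESeq2 called 143 and limma-voom 133. The replicate block gave 150 calls (55 higher, 95 lower) and 175 for the difference. Deviations of same-numbered DMSO libraries correlated at 0.066, 0.162 and 0.139, and each library correlated best with its own number, a hint from the data and not from the design, so the numbers were not taken to pair the samples.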
